A study of Mus musculus with 4 samples.

Results

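Genes that mark blood vessels were followed in RNA from cells labelled as CD4+ T cells of inflamed mouse skin. They are 10 of the 55335 genes counted, chosen by name: 8 of endothelial cells (Plvap, Pecam1, Cdh5, Kdr, Vwf, Egfl7, Emcn and Cldn5) and 2 of mural cells (Pdgfrb and Rgs5). Each was found by its symbol, and the fragments of its exons were added up in each library. The 4 libraries came from mice with Mettl3fl/fl alleles (controls 1 and 2) or from Mettl3fl/fl;Cd4-Cre mice (knockouts 1 and 2), with numbers that only name them. Floxed alleles of Mettl3, the catalytic subunit of the enzyme that writes N6-methyladenosine on RNA, are shared by both groups. Cre under the Cd4 promoter acts in T cells, and endothelial and mural cells are not its target. All animals, aged 8 to 12 weeks, had cream with 5% imiquimod, an agonist of Toll-like receptor 7, put on the back on 5 days in a row. The daily amount was 15 or 62.5 mg per the labels' protocols, and neither the amount each mouse got nor the sorting gate is stated there.

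Endothelial cells line vessels and hold together through adherens and tight junctions. They read growth signals through receptor tyrosine kinases, and they let leukocytes pass into tissue. Mural cells, which are the pericytes of small vessels and the smooth muscle of larger ones, wrap around them and depend on platelet-derived growth factor from the endothelium. Skin vessels widen and multiply in psoriatic inflammation. Neither cell type carries CD45, the leukocyte protein for which the dermal suspensions were stained together with CD4.

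Libraries held between 3614418 and 4537006 counted fragments. Levels are CPM, a gene's fragments relative to library size with TMM scaling. Where no fragment was counted, the level could still have reached 0.655 to 0.792 CPM, depending on the library (3 fragments, counting error only). Values of the 4 libraries are given below in the order control 1, control 2, knockout 1 and knockout 2 unless libraries are named. Defining T cell genes were low: the 15 T cell markers listed summed to 1006, 267, 319 and 135 CPM. Cd4 had 777, 0, 420 and 9 fragments. Fragments in shared exons were not counted, so the 0 of control 2 does not show that the transcript its label names was absent. Ptprc, which encodes CD45, had 126, 313, 535 and 197 fragments, all in exons that only retained-intron transcripts have. Control 2 also stood apart in its missing genes: 32.7% of all genes tested had no fragment there, where the other libraries lacked 1.84%, 1.78% and 6.92%. Mettl3 had 195, 49, 121 and 158 fragments, 89.9% of them in retained-intron exons, and they do not check the deletion. Since the number of mice behind each library is unknown, a p-value here reflects only how far these libraries differ among themselves. In bulk RNA, fewer vessel cells and less RNA per vessel cell cannot be told apart.

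The vessel genes were scarce, with the highest share of the 8 endothelial genes in control 1 and of the 2 mural genes in control 2. The 8 endothelial genes together took 0.0458% of the fragments of control 1, with an exact binomial 95% interval from 0.0438 to 0.0478, and 0.0121% of those of control 2 (0.0110 to 0.0133). The share was 0.00806% for knockout 1 (0.00724 to 0.00895) and 0.0277% for knockout 2 (0.0261 to 0.0293). The intervals of the 4 libraries do not touch, yet the knockouts lie on both sides of control 2, so the groups overlap. The 2 mural genes took 0.00220%, 0.0119%, 0.000116% and 0.000620% of fragments. Here both controls lie above both knockouts, but nearly all of these fragments are of Rgs5. It had 94, 429, 5 and 26, against 6, 0, 0 and 1 for Pdgfrb. The 26 other mural and smooth muscle genes listed summed to 270, 158, 56.2 and 225 CPM, where the groups overlap.

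**Figure D1:**
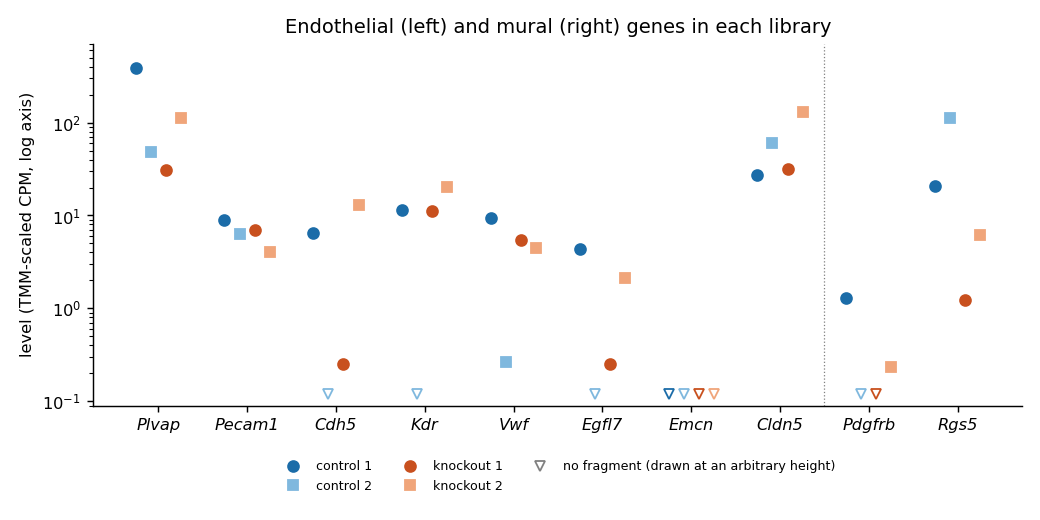
Level of each gene (TMM-scaled CPM, log axis) in the 4 libraries, with controls in blue and knockouts in orange. Open triangles mark libraries without a fragment, as for Emcn in all 4, and Rgs5 is the gene whose controls (20.5 and 113 CPM) both lie above its knockouts (1.25 and 6.15 CPM).

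Plvap, the protein of the diaphragms that span endothelial fenestrae and caveolae, had the highest mean level per length of the 10 (GRCm38 chromosome 8, 71497765 to 71511752, minus strand). It was counted 1766, 181, 123 and 475 times, or 386, 47.8, 30.7 and 112 CPM. Control 1 is high, and knockout 2 lies between the 2 controls. Controls averaged 217 ± 239 CPM against 71.5 ± 57.7 for knockouts (± SD, n = 2 per genotype), and the log2 fold change of knockouts over controls was -1.60 ± 1.21 (SE, edgeR with adjusted p = 0.9997). The SD of the controls exceeds the difference, and without control 1 the log2 fold change is 0.64, the opposite direction.

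Each of the 6 Plvap exons belongs to 1 transcript, so all could be counted, and the gene shows where along the RNA the fragments lay. The last exon (71497765 to 71498405), which is stop codon and 3′ UTR but for 4 of its 641 bases, makes up 32.3% of the exon length. The share of Plvap fragments within it was 71.9% for control 1 (exact 95% interval from 69.8 to 74.0) and 74.6% for control 2 (67.6 to 80.8). For the knockouts it was 88.6% (81.6 to 93.6) and 74.9% (70.8 to 78.8). Knockout 1 is the high one, and its interval lies above those of the other libraries. The first exon (71511351 to 71511752) had 109, 0, 0 and 39 fragments. The third (71507601 to 71508307), the longest, had 287, 35, 1 and 61. Cdh5 and Kdr also had most fragments in their last exons, 93.0% and 95.6% of the total over all libraries. A fragment that touched 2 exons was not counted, which favours long exons in every library.

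**Figure D2:**
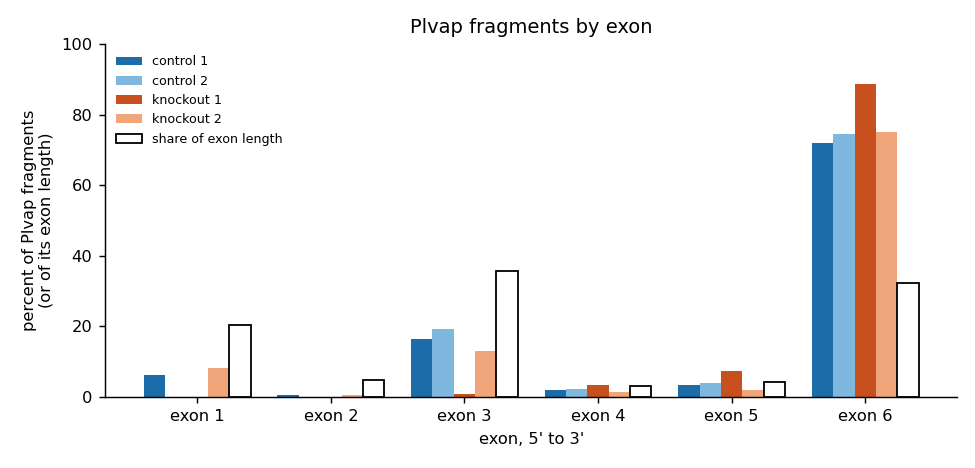
Percent of the Plvap fragments of each library (coloured bars) in its 6 exons from 5′ to 3′, beside each exon's percent of the total exon length (open bars). Exon 6 held 71.9% to 88.6% of fragments against 32.3% of the length, and exon 1 had none in control 2 and knockout 1.

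Cldn5, the main tight-junction claudin of endothelium, has a single exon (chromosome 16, 18776847 to 18778262, plus strand), so its count is free of the shared-exon problem. It was counted 125, 231, 128 and 545 times, or 27.3, 61.0, 31.9 and 129 CPM. Knockout 2 is high, and knockout 1 lies between the controls. Controls averaged 44.1 ± 23.8 CPM and knockouts 80.4 ± 68.5 (± SD, n = 2 per genotype), and the log2 fold change was 0.87 ± 1.07 (SE, edgeR with adjusted p = 0.9997). It is -0.37 without knockout 2.

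The balance of these abundant endothelial genes differed between libraries. For each Plvap fragment, Cldn5 had 0.0708 fragments in control 1, with an exact 95% interval from 0.0586 to 0.0849. The ratio was 1.28 for control 2 (1.05 to 1.56), 1.04 for knockout 1 (0.806 to 1.34) and 1.15 for knockout 2 (1.01 to 1.30). Control 1 stands apart, and the intervals of the other 3 libraries overlap. Plvap thus made up 85.0% of the endothelial fragments in control 1 and 35.3% to 41.4% in the others. The other 7 endothelial genes together had 311, 256, 225 and 730 fragments, so without Plvap the highest library was knockout 2.

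Kdr, the main receptor for vascular endothelial growth factor A (chromosome 5, 75932827 to 75978458, minus strand), had 52, 0, 45 and 85 fragments. These are 11.4, 0, 11.2 and 20.1 CPM. Control 1 and knockout 1 are alike, and control 2 has none. The log2 fold change was 1.46 ± 2.35 (SE, edgeR with adjusted p = 0.9997). It is 0.46 without control 2. Against control 2 alone, which had no fragment, the mean of the knockouts was at least 19.8-fold higher (over the level of 3 fragments in that library). That bound allows for counting error in control 2 only, not for the spread between libraries. Of all genes tested, 32.7% had no fragment in control 2.

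Cdh5, the cadherin of endothelial adherens junctions (chromosome 8, 104101625 to 104144511, plus strand), had 30, 0, 1 and 55 fragments. Each group has 1 library with a clear signal and 1 with next to none. The levels were 6.55, 0, 0.250 and 13.0 CPM, with a log2 fold change of 1.01 ± 2.77 (SE, edgeR with adjusted p = 0.9997). Leaving out knockout 2 gives -3.55, the opposite direction. Against control 2 alone the mean of the knockouts was at least 8.37-fold higher, with the same limits as for Kdr. This fold rests on knockout 2, since the 1 fragment of knockout 1 lies under the level that a count of 0 allows.

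Pecam1, an adhesion molecule at endothelial contacts that platelets and some leukocytes also carry (chromosome 11, 106654217 to 106750628, minus strand), was the most even of the counted genes. It had 41, 24, 28 and 17 fragments, or 8.95, 6.34, 6.99 and 4.02 CPM, and the groups overlap. The log2 fold change was -0.47 ± 1.63 (SE, edgeR with adjusted p = 0.9997). The even total hides a split between exons. A retained-intron exon (106661185 to 106663326) had 29, 24, 11 and 0 fragments, while a noncoding exon of a protein-coding transcript (106750143 to 106750628) had 12, 0, 15 and 17. In the first the knockouts are the low libraries, and in the second they are the high ones. Without retained-intron exons the log2 fold change is 1.58.

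Vwf, the platelet-tethering protein that endothelium stores and secretes (chromosome 6, 125546774 to 125686679, plus strand), had 43, 1, 22 and 19 fragments. That is 9.39, 0.264, 5.49 and 4.49 CPM, and the knockouts lie between the controls. The log2 fold change was 0.05 ± 2.10 (SE, edgeR with adjusted p = 0.9997). The coding exon with most fragments (125642035 to 125643413) had 21, 0, 4 and 3, and a noncoding exon of a processed transcript (125578182 to 125578578) had 0, 0, 6 and 12. Of the 11 platelet and megakaryocyte markers, which could share Vwf and Pecam1, the summed level was 81.0, 0, 48.2 and 56.0 CPM. Gp1bb and Treml1 were at 0 in all libraries, and the part of platelets in the Vwf counts was not tested.

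Egfl7, a secreted factor of endothelial matrix (chromosome 2, 26580014 to 26593120, plus strand), hosts the microRNA gene Mir126a. It had 20, 0, 1 and 9 fragments, too few for the test. Control 1 and knockout 2 hold nearly all of them. Every fragment lay in retained-intron exons (26591446 to 26592290 and 26592147 to 26592682), and the nearer of these starts 16 bases after the end of the Mir126a hairpin (26591357 to 26591429). The mature arm in RefSeq (GRCm38.p6, chr2:26591402-26591423, plus strand) is shown because its hairpin lies just upstream of the exons that gave the counts, with its seed (bases 2 to 8) in capitals.
mmu-miR-126a-3p: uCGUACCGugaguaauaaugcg
The microRNA itself is not measured by these libraries, which were primed with oligo-dT.

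Emcn, a sialomucin of capillary and venous endothelium (chromosome 3, 137341067 to 137432185, plus strand), had no fragment in any library, though 3960 of its exon bases could be counted. Those bases lie in 3 of its 40 annotated exons, the ones with bases that no other exon covers. The limit of 0.655 to 0.792 CPM given above thus holds for fragments of those bases only. Fragments in shared exons were not counted, so the level of the whole gene is not bounded.

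Rgs5, a regulator of G-protein signalling that is the best known pericyte transcript (chromosome 1, 169655501 to 169695813, plus strand), was the one gene of the 10 whose groups did not overlap. It was counted 94, 429, 5 and 26 times, or 20.5, 113, 1.25 and 6.15 CPM. Both controls are high and both knockouts low, with control 2 well above control 1. Controls averaged 66.9 ± 65.6 CPM and knockouts 3.70 ± 3.46 (± SD, n = 2 per genotype). The log2 fold change of -4.16 ± 1.58 (SE) did not pass the threshold (edgeR, unadjusted p = 0.043 and adjusted p = 0.9997). It was -2.47 without control 2. Over the 11 alternatives the adjusted p lay between 0.0627 and 0.999996, and DESeq2 gave 0.505. All Rgs5 fragments lay in its last exon (169692179 to 169695813), of whose 3635 bases 159 are coding and the rest stop codon and 3′ UTR. Control 2 was also the library with the highest keratinocyte markers, 27354 CPM for 15 genes against 1226 to 2848 in the others, and their part in the Rgs5 level was not tested. These markers were at 2054 CPM in control 1, between the 2848 and 1226 CPM of knockouts 1 and 2.

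Pdgfrb, the receptor through which platelet-derived growth factor recruits mural cells, is also made by fibroblasts (chromosome 18, 61045150 to 61085061, plus strand). Only 126 of its exon bases could be counted. It had 6, 0, 0 and 1 fragments, which is too few for any comparison.

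Levels of different genes can be set side by side only per length, here as CPM per kilobase of exon that a single annotated exon covers. On that scale the mean over libraries was 72.5 for Plvap, 44.0 for Cldn5, 8.26 for Rgs5, 3.07 for Pdgfrb, 2.42 for Pecam1, 1.58 for Kdr, 1.23 for Egfl7, 1.22 for Cdh5 and 0.647 for Vwf. Neighbours in this order overlap in their ranges. The place of Pdgfrb rests on 7 fragments over 126 bases and that of Egfl7 on retained-intron exons alone, so neither place is interpreted. Plvap ran from 15.5 to 194 and Cldn5 from 19.3 to 91.0, and Plvap was above Cldn5 only in control 1. Cldn5 was above Rgs5 in all 4 libraries.

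None of the 10 genes was called between the genotypes. Of the 10, 7 passed the filter on low counts (Egfl7, Emcn and Pdgfrb did not), 4 with a positive and 3 with a negative log2 fold change and a median of 0.05, against 0.20 for all 12434 genes tested. Of all genes, 0% passed an adjusted p of 0.05 (edgeR, 187 genes or 1.5% at an unadjusted p under 0.05), and DESeq2 called 0.188% of its 9059 genes with an adjusted p. DESeq2 called none of the 10 and gave Cdh5 and Vwf no adjusted p. Both knockouts lay below both controls for 1 of the 10 genes, where 11.2% of all genes tested did, and above them for 0, where 19.5% did. With 10 genes, the count below is near this background, and nothing is read from the count of 0.

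**Figure D3:**
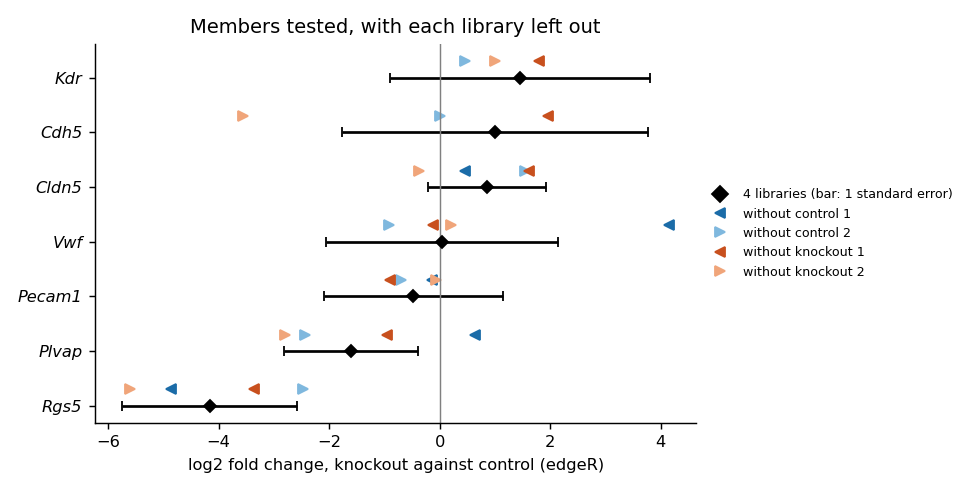
Log2 fold change of knockout against control (edgeR) for the 7 genes tested, with 1 standard error (black), and with each library left out (coloured triangles). Rgs5 stays between -5.60 and -2.47 and Kdr between 0.46 and 1.80, while Plvap, Cdh5, Vwf and Cldn5 change sign. Kdr and Cdh5 have no point without control 1, since the control left then has no fragment of either.

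Single libraries set most of these directions. Shares of all genes in this paragraph are over those that passed the low-count filter in each fit, while the 10 genes include some that did not. Without control 2, both knockouts lay below control 1 for 6 of the 10 genes (Plvap, Pecam1, Vwf, Egfl7, Pdgfrb and Rgs5), where 32.6% of all genes did, and above it for Cldn5 alone, where 27.5% did. Pdgfrb, with 6 fragments in control 1 against 0 and 1 in the knockouts, is too low for its place to count. Without control 1, both knockouts lay above control 2 for Cdh5, Kdr, Vwf and Egfl7, where 51.8% of all genes did, and below it for Rgs5 alone, where 30.2% did. For Cdh5 and Egfl7, knockout 1 is above control 2 by 1 fragment against 0, which is under the level that a count of 0 allows. Without knockout 1, knockout 2 lay above both controls for Cdh5, Kdr and Cldn5 (33.4% of all genes) and below them for Pecam1 and Rgs5 (19.6%). Without knockout 2, knockout 1 lay above both controls for 0 of the 10 (35.5% of all genes) and below them for Plvap and Rgs5 (20.2%). Of the 9 genes with any fragment, 5 were highest in control 1, 3 in knockout 2 (Cdh5, Kdr and Cldn5), 1 in control 2 (Rgs5) and 0 in knockout 1. Control 2 had no fragment of 5 of the 10 genes, against 1 or 2 in each other library. Of these 5, only Cdh5 and Kdr passed the filter, and 32.7% of all genes tested had no fragment in control 2. Nothing particular to vessel genes is read from this count.

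Other endothelial genes were also mixed. Of 41 listed, 36 had a fragment in some library, 18 were tested and 0 were called, with a median log2 fold change of 0.14 (0.20 for all genes tested). Both knockouts lay above both controls for 2 of the 18, against 19.5% of all genes tested, and below for 4, against 11.2%. Aqp1, a water channel of capillaries, had 837, 181, 121 and 158 CPM. Like Plvap, it was highest in control 1. S1pr1, the sphingosine-1-phosphate receptor of endothelium and lymphocytes, had 277, 178, 127 and 68.3 CPM, so its knockouts lay below its controls. The summed T cell markers were also lowest in knockout 2, and their part in the S1pr1 level was not tested. Cd93, a lectin-like receptor of endothelial and myeloid cells, had 212, 66.8, 693 and 458 CPM, higher in both knockouts but not past the threshold (edgeR, unadjusted p = 0.041, adjusted p = 0.9997). The 15 macrophage and monocyte markers moved with it, at 19485, 10001, 29700 and 28222 CPM, and their part was not tested.

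Control 2 had no fragment of most of these endothelial genes and was the highest library for a few others. Sox7, a transcription factor of developing endothelium, had 27, 1065, 22 and 12 fragments (edgeR, unadjusted p = 0.044, adjusted p = 0.9997). Of the 41 genes, 28 had no fragment in control 2, while the other libraries lacked 10, 10 and 13. Many other genes also had no fragment in control 2. Of all 55335 genes counted, 11424 had a fragment there, against 19378, 20100 and 16273 in control 1, knockout 1 and knockout 2. The count of 28 is thus not shown to be particular to endothelial genes. Fabp4, a fatty-acid carrier of capillaries and adipocytes, had 37.8, 280, 80.1 and 289 CPM, with 99.0% of its fragments in retained-intron exons. The adipocyte hormone Adipoq followed the same order at 7.64, 464, 82.9 and 483 CPM, and the part of adipocytes in Fabp4 was not tested.

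Lymphatic endothelial genes did not differ detectably between the genotypes. All 8 listed had fragments, 6 were tested and 0 were called, with a median log2 fold change of -0.01. Both knockouts lay above both controls for 2 of the 6, Pdpn and Reln (19.5% of all genes tested), and below for 0 (11.2%). Ccl21a, the chemokine that draws dendritic cells into lymphatics, had 107, 262, 66.9 and 124 CPM. It has near-identical copies, so its counts are uncertain. Lyve1, the hyaluronan receptor of lymphatics and some macrophages, had 57.6, 183, 111 and 64.1 CPM. Nrp2, a co-receptor for vascular endothelial growth factor C, had 68.1, 0, 28.2 and 64.1. Pdpn, a mucin-like protein of lymphatics, keratinocytes and stromal cells, had 23.4, 4.22, 24.0 and 24.3, alike in 3 libraries and low in control 2. In Ccl21a and Lyve1 control 2 was the highest library, and in Nrp2 and Pdpn the lowest. Reln, a secreted glycoprotein of lymphatic vessels, had 1.96, 0, 5.24 and 4.96 CPM.

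Mural and smooth muscle genes beyond Rgs5 gave no call. Of 26 listed, 22 had a fragment, 9 were tested and 0 were called, with a median log2 fold change of -0.39. The knockouts lay below the controls for 1 of the 9, where 11.2% of all genes tested did, and above for 0, where 19.5% did. That gene was Itga8, an integrin of smooth muscle and fibroblasts, at 20.96, 31.7, 2.00 and 10.2 CPM. Acta2, smooth muscle actin, had 59.8, 0.264, 13.5 and 69.3 CPM. Myl9, a regulatory light chain of smooth muscle myosin, had 34.3, 19.8, 2.50 and 38.8 CPM. Both were high in control 1 and knockout 2, which is not the order of Rgs5. Aoc3, an amine oxidase of smooth muscle, adipocytes and endothelium, had 4.58, 90.0, 1.75 and 40.4 CPM. Notch3, the Notch receptor of mural cells, had 34.7, 0, 18.2 and 19.1. Mylk, the kinase of the myosin light chain, had 31.2, 0, 2.50 and 1.42. Control 2 was thus the highest library for Rgs5, Itga8 and Aoc3, and it had no fragment of Notch3 and Mylk, as of 32.7% of all genes tested.

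Growth factors and other ligands that act on vessels were counted in 16 of 18 cases and tested in 13, with 0 called. Of these, 10 had a negative and 3 a positive log2 fold change, where 56.9% of all genes tested had a positive one, and the median was -0.45 against 0.20. The knockouts lay below the controls for 0 (11.2% of all genes tested) and above for 2 (19.5%). Those 2 were the ligands of the receptor Tek: Angpt2, which loosens vessels, had 22.3, 0, 37.4 and 73.5 CPM, and Angpt1, which stabilises them, had 3.49, 0, 9.48 and 5.44. Jag1, a Notch ligand, had 135, 254, 265 and 181 CPM. Edn1, the vasoconstrictor endothelin-1, had 39.5, 204, 96.3 and 48.7. In both the groups overlap. Efnb2, an ephrin of arterial endothelium, had 92.6, 70.0, 34.4 and 87.0, and Vegfd, a ligand of lymphatic growth, 29.5, 83.4, 8.24 and 52.7. For these last ligands knockout 1 was the lowest library.

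Fibroblast, macrophage and keratinocyte markers summed to more than the 8 endothelial genes in every library. The endothelial sum was 453, 115, 86.9 and 285 CPM. The sums of T cell, adipocyte, and Schwann cell and melanocyte markers lay above it in some libraries and below it in others. The 15 fibroblast markers summed to 13623, 3173, 6041 and 6312 CPM, led by Mmp2, a matrix metalloproteinase, at 2590, 386, 999 and 1948. Control 1 is the highest library for both sums, while the lowest is knockout 1 for endothelial genes and control 2 for fibroblast markers. Lyz2, the myeloid lysozyme, had 9378, 3876, 14351 and 10809 CPM. Perp, a desmosome-associated protein of keratinocytes, had 227, 6580, 443 and 100.5 CPM. Lyz2 was thus higher in both knockouts than in the controls, and Perp stood out in control 2. Trac, the constant region of the T cell receptor alpha chain, had 198, 73.1, 34.9 and 25.5. Itgb3, an integrin of platelets and activated endothelium, had 58.3, 0, 16.0 and 38.3, and Mbp, a myelin protein also made outside Schwann cells, 160, 199, 132 and 73.3. The lists differ in length and in countable exons, so sums of different lists compare only roughly.

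**Figure D4:**
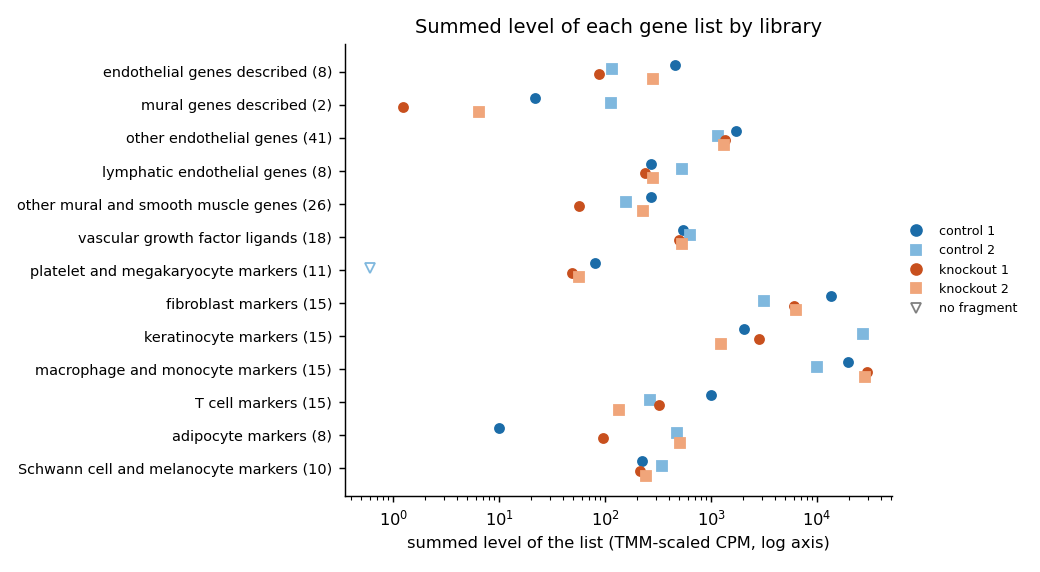
Summed level (TMM-scaled CPM, log axis) of each gene list in the 4 libraries, with the number of genes in brackets. The endothelial genes described lie between 86.9 and 453 CPM, below the 3173 to 13623 CPM of the fibroblast markers in each library, and the open triangle marks control 2 without platelet fragments.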

How the data were processed

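RNA of cells labelled as skin CD4+ T cells was sequenced in 2 libraries of each genotype. Each deposited table lists raw counts of fragments, one annotated exon a line. They were made with featureCounts 2.0.1 from pairs with both mates aligned, unstranded, using GENCODE M23 and GRCm38 alignments, per the file headers. Per the submitters' processing notes, Trim Galore 0.6.7 and STAR 2.7.9a came before. Exons that share their coordinates with another entry (64.8%) held 0 fragments, so a gene's count rests on exons of single transcripts. Such counts can move with transcript use as well as with level, and RNA of the opposite strand cannot be told apart.

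Exon counts were summed per gene, with symbols for 55154 of 55335 genes. Exon types came from GENCODE M21. Genotypes were compared over all genes with edgeR 4.0.16 (R 4.3.3, TMM factors, genes kept by filterByExpr with a minimum count of 10, quasi-likelihood test, two-sided, Benjamini-Hochberg at 0.05). A prior check on simulated counts, with the same dispersion for all genes, concerned only the running of the code. It does not give the power or error rate at the spread between these libraries. Standard errors are the log2 fold change over the square root of F. Alternatives were other factors, filters, DESeq2 1.42.0, limma-voom 3.58.1, counts without retained-intron exons, and leaving out each library. Intervals of shares are exact binomial at 95% and cover counting error only. The members and lists were chosen with earlier results of these data known. Genes named are the members, the 4 genes of highest mean and the 2 of lowest p in each vascular list, the gene of highest mean in each other list, Ptprc, Cd4, and the 5 genes with the nearest profile. Mettl3 and the platelet markers without fragments (Gp1bb and Treml1) were named outside this rule. A gene of the platelet list is not reported here.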

Additional observations from a re-analysis of the deposited data

How the results depend on the processing

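None of the 11 alternatives called any of the 7 genes tested. Over all genes, DESeq2 called 17 genes (4 higher, 13 lower) and edgeR without a low-count filter 27 (8 higher, 19 lower), against 0 in the reported fit, and leaving out 1 library gave 0 to 4 (2 without knockout 1, 4 without knockout 2). The median log2 fold change of the members tested was 0.05, against 0.20 for all genes tested. It was 0.70 by limma-voom (all genes 0.44) and 0.96 without retained-intron exons (all genes 0.19). It was -0.38 without a low-count filter (9 members, all genes 0.30). With genes at 0 in any library dropped it was -0.46 (5 members, all genes -0.05). Without control 1 it was 0.64 (all genes 1.72), and without control 2 -0.81 (all genes 0.05). Without knockout 1 it was -0.08 (all genes -0.01), and without knockout 2 -1.58 (all genes 0.10). Pecam1 turned to 1.58 without retained-intron exons. Over the fits that leave out 1 library each, log2 fold changes ran between -2.79 and 0.64 for Plvap, -3.55 and 7.75 for Cdh5, -0.91 and 4.15 for Vwf, and -0.37 and 1.61 for Cldn5, each range crossing 0. The upper end for Cdh5 is against control 2 without a fragment, so it depends on the prior count and is no bound, and that for Vwf is against 1 fragment (ratio 18.9, exact 95% interval 3.20 to 763). Rgs5 stayed negative in all 11 alternatives and Kdr positive in the 10 that tested it. In a comparison chosen after seeing the data, leaving out 1 library gave 0 to 4 members with the knockouts above the controls and 1 to 6 below, the 6 without control 2. In settings with 1 library of a genotype, that library is assumed to vary like the others. No paired analysis was possible because the labels number no replicates. Egfl7, Emcn and Pdgfrb, with 30, 0 and 7 fragments in all, were too low for the reported test, and only 126 bases of Pdgfrb could be counted.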

Other observations

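The members tested had, on average, a profile over the 4 libraries that was high in control 1 (0.89 above the gene mean on the log2 scale of CPM + 0.5) and knockout 2 (0.67) and low in control 2 (-0.82) and knockout 1 (-0.73). Single members depart from it: Rgs5 was highest in control 2, Cldn5 lowest in control 1 and Pecam1 lowest in knockout 2. The value for control 2 also depends on the added 0.5, since Cdh5 and Kdr had no fragment there. Of 9751 other genes with a mean of at least 5 CPM, the 5 nearest in Euclidean distance were Fam98b (0.121), Tulp3 (0.166), Siah2 (0.182), Ccn2 (0.200) and Ptgfrn (0.214). Ccn2, a matricellular protein of connective tissue, had 43, 11, 10 and 35 fragments in control 1, control 2, knockout 1 and knockout 2, and Siah2, a ubiquitin ligase, had 373, 106, 118 and 351. A distance under 1 was reached by 368 genes, so with 4 libraries many genes lie this close.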
